A study of Mus musculus with 10 samples.

Results

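Metallothioneins and the genes that move zinc across membranes were examined in whole-brain RNA of neonatal Swiss Webster mice with a hypoxic-ischemic brain injury. The set holds 10 genes taken by symbol from the 55471 gene identifiers of the count table: the metallothioneins Mt1, Mt2 and Mt3, the zinc-sensing transcription factor Mtf1, the exporters Slc30a1, Slc30a3 and Slc30a10, and the importers Slc39a10, Slc39a12 and Slc39a14. Each of the 10 symbols matched 1 identifier, and all 10 were among the 17101 genes abundant enough to test. All animals were labelled wild type and neonatal day 5, and all had the injury. The untreated group is 5 pups with no treatment (libraries 1 to 5), and the other 5 pups received allopregnanolone (libraries 6 to 10), a steroid derived from progesterone that potentiates GABA-A receptors. Each library came from 1 numbered pup and holds RNA of all cell types of the brain, so fewer cells of a type and less RNA per cell cannot be told apart. No uninjured animals were analysed here. The sources used here do not give the dose, the litters or the time between injury and collection.

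Metallothioneins are small cysteine-rich proteins that bind zinc and copper, buffer free zinc and take up reactive oxygen. In the brain Mt1 and Mt2 are made mainly by astrocytes and rise after injury, whereas Mt3 is a brain-enriched form of neurons and astrocytes. Cytosolic zinc is sensed by MTF1, which binds metal response elements in front of Mt1, Mt2 and Slc30a1 and switches them on. Transporters of the Slc30 family carry zinc out of the cytosol, to the outside or into vesicles, and those of the Slc39 family carry it in. Glucocorticoids also induce Mt1 and Mt2.

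The 3 metallothionein genes lie within 27721 bases of mouse chromosome 8 (GRCm38), Mt3 at 94152607 to 94154146, Mt2 at 94172664 to 94173568 and Mt1 at 94179082 to 94180327, all on the plus strand. The 250 bases before the RefSeq transcription starts of these genes and of Slc30a1, the exporter known as an MTF1 target, are shown because metal response elements are known from these promoters. They are given 5′ to 3′ on the coding strand, with capitals on the core of that element, TGCACNC or TGCGCNC on either strand. The windows are chr8:94178839-94179088 for Mt1, chr8:94172368-94172617 for Mt2, chr8:94152357-94152606 for Mt3 and chr1:191906531-191906780 for Slc30a1, all on the plus strand of GRCm38.p6.
Mt1: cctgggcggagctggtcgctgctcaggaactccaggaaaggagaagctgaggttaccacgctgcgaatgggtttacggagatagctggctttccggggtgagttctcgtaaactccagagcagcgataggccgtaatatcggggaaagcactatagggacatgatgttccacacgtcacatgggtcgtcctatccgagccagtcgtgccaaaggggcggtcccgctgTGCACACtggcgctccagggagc
Mt2: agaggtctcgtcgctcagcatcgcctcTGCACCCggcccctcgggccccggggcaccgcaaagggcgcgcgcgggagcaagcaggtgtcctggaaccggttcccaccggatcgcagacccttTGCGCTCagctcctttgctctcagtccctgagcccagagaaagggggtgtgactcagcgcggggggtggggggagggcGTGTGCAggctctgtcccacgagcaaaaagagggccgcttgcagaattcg
Mt3: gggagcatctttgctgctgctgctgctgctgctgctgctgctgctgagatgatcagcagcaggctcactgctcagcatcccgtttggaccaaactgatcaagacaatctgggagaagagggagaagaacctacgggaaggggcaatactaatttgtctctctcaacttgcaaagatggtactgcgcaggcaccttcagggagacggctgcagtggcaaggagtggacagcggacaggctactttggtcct
Slc30a1: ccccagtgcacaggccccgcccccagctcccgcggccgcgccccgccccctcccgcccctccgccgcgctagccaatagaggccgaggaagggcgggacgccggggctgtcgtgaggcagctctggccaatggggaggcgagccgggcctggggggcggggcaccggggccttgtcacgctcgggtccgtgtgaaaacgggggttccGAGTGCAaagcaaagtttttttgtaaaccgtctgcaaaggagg

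The Mt2 window held 3 matches to the core, the Mt1 window 1 match, which began 23 bases before the start, and the Slc30a1 window 1 match. No match was found in the 250 bases before Mt3. Among 32851 promoter windows of this length from RefSeq, 21.4% held at least 1 match and 1.26% at least 3. Slc30a10 also reached 3, of which a pair on opposite strands overlapped 233 bases before the start. Slc30a3 had 1 match before 1 of its 2 starts, and Mtf1, Slc39a10 and Slc39a12 had none. A core of the antioxidant response element, TGACNNNGC, lay before Mt2 and Slc30a1 (10.2% of all windows held one), and a STAT site, TTCNNNGAA, before 1 of the 2 starts of Slc39a10 (7.02% of windows). No window of these 9 genes held the palindromic glucocorticoid response element, which only 0.00913% of windows held. All motifs were searched on both strands, and a match describes letters in these windows, not binding. The windows end at RefSeq starts, and for Mt2 that start (94172618) lies before the gene start given above (94172664). Bases outside the windows, also those after the RefSeq starts, were not searched. The counts of matches are thus not totals for a gene, and do not rank Mt1 against Mt2.

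**Figure D1:**
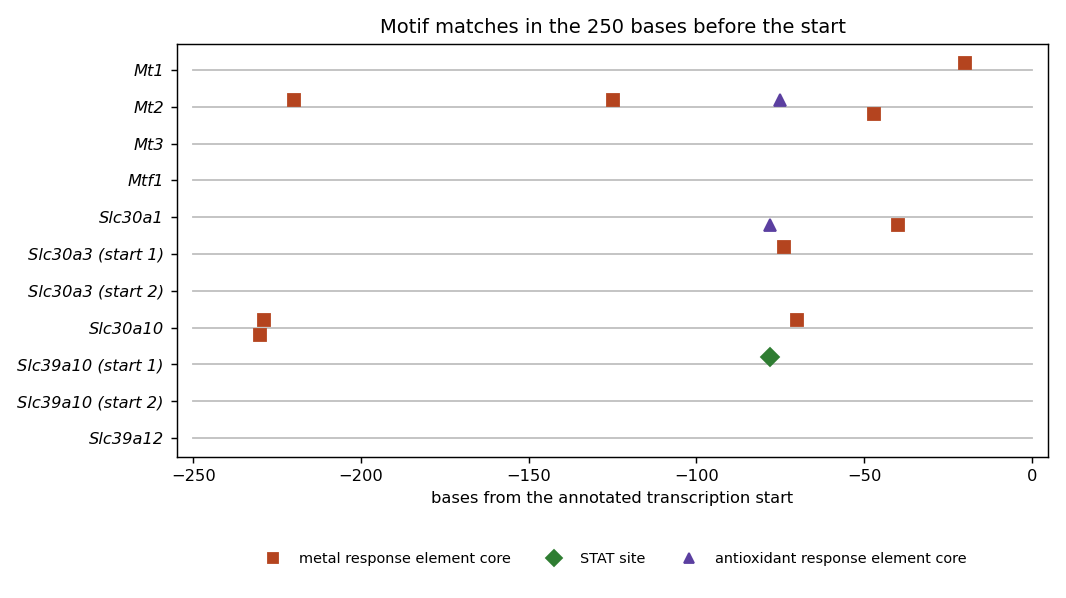
Positions of motif matches in the 250 bases before the annotated transcription starts of 9 of the 10 genes, with bases from the start on the x axis; symbols above a line are on the coding strand and symbols below it on the other strand. Within these windows Mt2 and Slc30a10 carry 3 metal response element cores each, and Mt1 and Slc30a1 carry 1 each.

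Of the 10 genes, 4 rose with allopregnanolone (Mt1, Mt2, Mt3 and Slc39a12), 1 fell (Slc30a10) and 5 stayed above the threshold of 0.05 on the adjusted p. The test was edgeR's quasi-likelihood test, fitted to all 17101 genes. Over all genes tested 11.3% passed, 6.61% higher and 4.65% lower. The median log2 fold change was 0.21 over the 10 genes and -0.0046 over all genes tested. For 3 of the 10 genes (Mt1, Slc39a12 and Slc30a10) the treated and untreated libraries did not overlap, against 9.64% of all genes tested. The call on Mt1 was kept in all 26 alternative analyses, that on Mt2 in 24, on Slc39a12 in 23, on Mt3 in 15 and on Slc30a10 in 13.

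**Figure D2:**
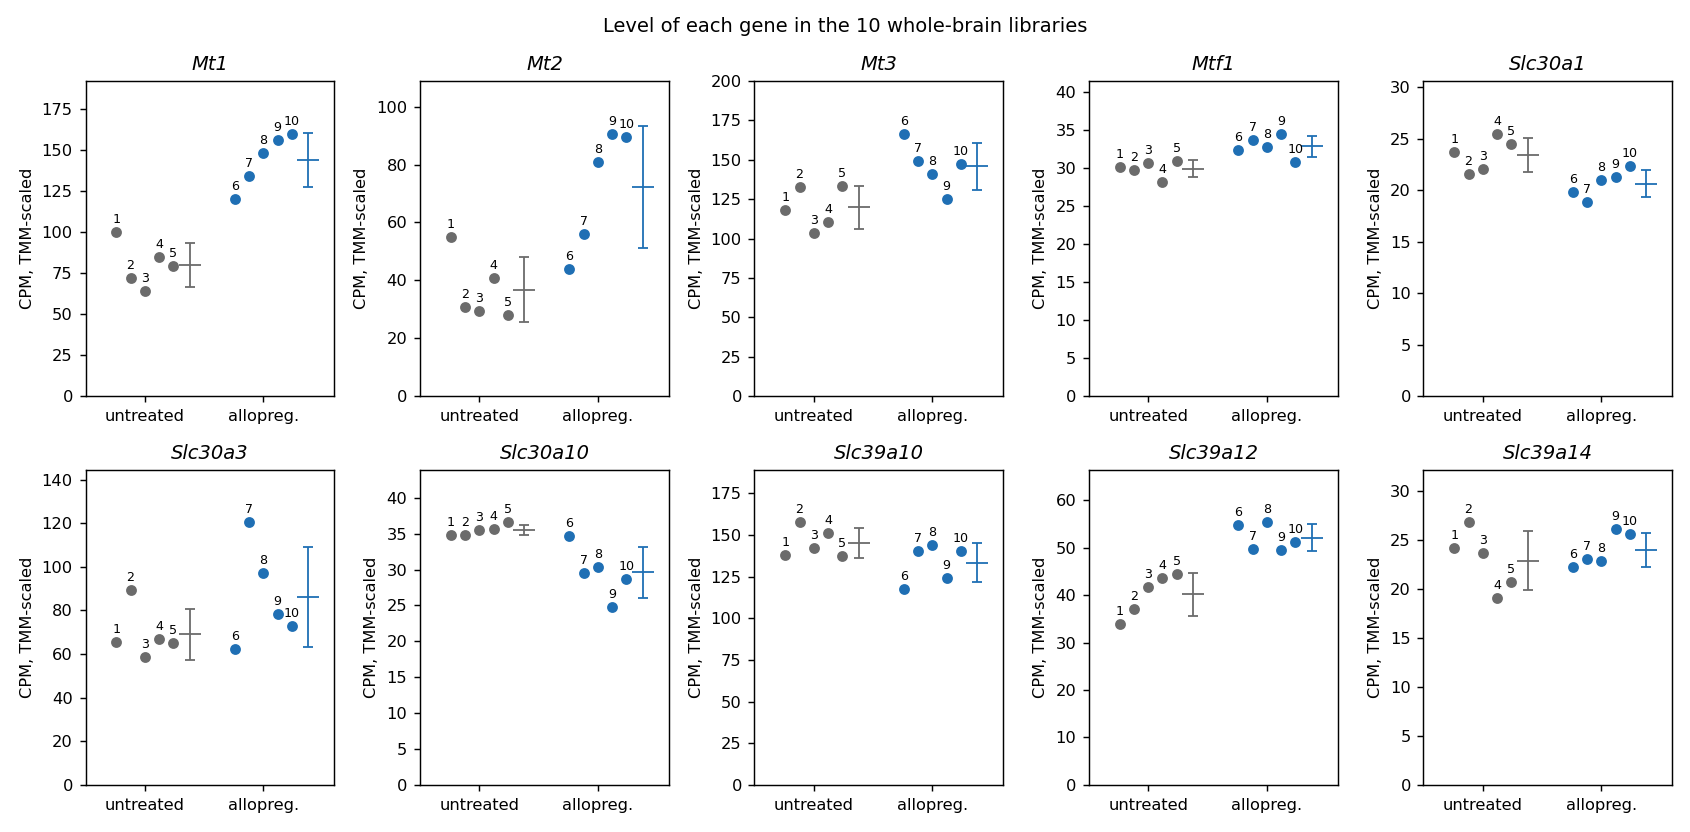
Level of each of the 10 genes in each library, in CPM scaled by TMM, for 5 untreated (grey) and 5 allopregnanolone (blue) libraries; numbers are pups and bars are mean ± SD. The groups are apart for Mt1, Slc39a12 and Slc30a10 and overlap for the other 7 genes.

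Levels are given as CPM, the count of a gene relative to its library's TMM-scaled total. Mtf1 (chromosome 4, 124802104 to 124849800), the sensor that drives metallothionein transcription, stood at 30.2, 29.7, 30.7, 28.1 and 30.9 CPM in untreated libraries 1 to 5 and at 32.3, 33.7, 32.8, 34.5 and 30.8 CPM in treated libraries 6 to 10. Treated library 10 lay inside the untreated range and the other 4 above it. The log2 fold change of 0.13 (SE 0.05) did not pass (adjusted p = 0.113, edgeR).

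Mt1 (ENSMUSG00000031765) had the smallest p of the 10 genes. It was at 99.98, 72.1, 63.9, 84.6 and 79.2 CPM in untreated libraries 1 to 5 and at 119.9, 134, 148, 156 and 160.0 CPM in treated libraries 6 to 10. All 5 treated libraries lay above every untreated one, with untreated library 1 and treated library 6 closest to each other. The group values were 80.0 ± 13.6 and 144 ± 16.6 CPM (SD, n = 5 each), a 1.80-fold rise (log2 fold change 0.84, SE 0.11, adjusted p = 0.00071, edgeR). Between 1615 and 4024 counts per library stood behind these values.

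Mt2 (ENSMUSG00000031762), the other inducible form, was at 54.8, 30.8, 29.3, 40.8 and 28.1 CPM untreated and at 43.8, 56.1, 80.7, 90.7 and 89.5 CPM treated, in the same order of libraries. Treated library 6 lay below untreated library 1, and the other 4 treated libraries lay above all untreated ones. Mt2 went from 36.8 ± 11.3 CPM to 72.1 ± 21.1 CPM (SD, n = 5 each), which is a 1.96-fold rise (log2 fold change 0.97, SE 0.22, adjusted p = 0.0136, edgeR). With robust empirical Bayes the adjusted p was 0.0554, and within the library name prefix that both groups share it was 0.11 (edgeR). A gene on the opposite strand, Gm45774, covers 73.5% of the annotated Mt2 exon bases. Its level was 0.044 to 0.277 CPM over the 10 libraries. Gm45774 had 1 to 7 counts per library, against 632 to 1967 for Mt2. The strand setting of the counting is unknown, so reads in the exon bases they share cannot be told apart.

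Mt3 (ENSMUSG00000031760) was at 118, 133, 103, 110.7 and 134 CPM in untreated libraries 1 to 5 and at 167, 149, 141, 125 and 148 CPM in treated libraries 6 to 10. Treated library 9 lay inside the untreated range. Group levels were 119.8 ± 13.4 and 146 ± 15.0 CPM (SD, n = 5 each), a rise of 1.22-fold (log2 fold change 0.29, SE 0.08, adjusted p = 0.0435, edgeR). This call was lost in 7 of the 10 analyses that left out 1 library (untreated 1, 3 or 4, or treated 6, 7, 8 or 10), with adjusted p of 0.0253 to 0.107 over all 10 (edgeR). It was also lost with library totals alone (adjusted p = 0.0597, edgeR). The order of the treated libraries differed from that of Mt1: library 6 was the highest for Mt3 and the lowest for Mt1 and Mt2.

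The 3 ratios between metallothioneins were compared between the groups by exact two-sided permutation tests over 252 assignments, with p adjusted over the 3 ratios. The log2 ratio of Mt1 to Mt3 was -0.59 ± 0.27 untreated and -0.02 ± 0.30 treated (SD, n = 5 each), a difference of 0.57 with an exact permutation p = 0.0238 and an adjusted p = 0.0714. The log2 ratio of Mt2 to Mt3 differed by 0.68 (exact permutation p = 0.0873, adjusted p = 0.131). The log2 ratio of Mt1 to Mt2 was 1.15 ± 0.23 untreated and 1.04 ± 0.30 treated (SD, n = 5 each; exact permutation p = 0.524, adjusted p = 0.524). None of the 3 differences thus passed after adjustment. Without treated library 6 the Mt1 to Mt3 difference was 0.68 and the Mt2 to Mt3 difference 0.89, each with adjusted p = 0.0476 in the exact permutation test.

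**Figure D3:**
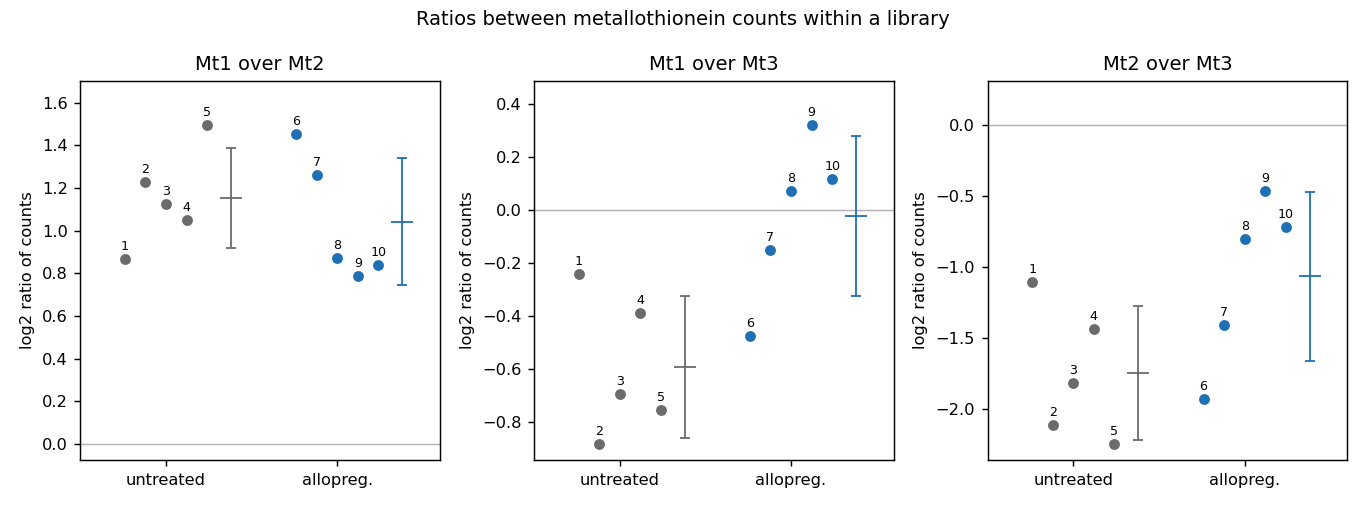
Log2 ratios of counts between 2 metallothionein genes within each library, for 5 untreated (grey) and 5 allopregnanolone (blue) libraries, with mean ± SD as bars. The Mt1 to Mt3 ratio is above every untreated library in 4 of 5 treated libraries, library 6 being the exception.

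Within groups, Mt1 and Mt2 varied together, with Pearson r = 0.90 over the 10 libraries after the group mean of log2 CPM was subtracted, while Mt1 and Mt3 had r = -0.20 and Mt2 and Mt3 r = -0.53. These values describe points that share libraries and depth. Among 9725 genes with a mean of at least 10 CPM, Smim3 had the pattern most like Mt1 within groups (r = 0.95), followed by Msl3. Smim3, which encodes a small membrane protein, also rose (log2 fold change 1.27, adjusted p = 0.00071, edgeR), whereas Msl3 did not pass (-0.06, adjusted p = 0.633). Stt3b, Tomm70a and Fam69a were most like Mt2, and Pa2g4, Psme3 and Ap2m1 most like Mt3, with r between 0.94 and 0.95. Of these 6 genes Tomm70a fell (log2 fold change -0.23, adjusted p = 0.0331, edgeR) and the other 5 missed the threshold, at -0.08 to 0.05 on the log2 scale. All genes named here are the highest of 9725 correlations over 10 libraries, a choice that by itself favours a high r. Whether they vary with a metallothionein beyond that was not tested.

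The fourth metallothionein of the cluster, Mt4, known from stratified epithelium, had 1 count in 1 library and none in the other 9, and was not tested. Within 100 kb of the cluster 4 further genes were tested, and 1 of them passed, where 11.3% of all genes tested passed. Ogfod1, an oxygenase gene on that stretch named here after its value was seen, rose 1.36-fold (log2 fold change 0.45, SE 0.07, adjusted p = 0.00248, edgeR). Bbs2, Nup93 and the pseudogene Rpl10-ps5 had log2 fold changes of 0.14, -0.05 and -0.16.

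Slc30a1 (chromosome 1, 191906767 to 191913247), which exports zinc across the plasma membrane and is switched on by MTF1, was lower in most treated libraries and did not pass. It was at 23.7, 21.5, 22.0, 25.5 and 24.5 CPM in untreated libraries 1 to 5 and at 19.8, 18.8, 21.0, 21.3 and 22.3 CPM in treated libraries 6 to 10. Treated library 10 lay above untreated libraries 2 and 3, and the other treated libraries lay below the untreated range. Its log2 fold change of -0.18 (SE 0.07, adjusted p = 0.107, edgeR) had the opposite sign to those of Mt1 and Mt2. Within groups, however, Slc30a1 varied with Mt1 (Pearson r = 0.69) and Mt2 (r = 0.60) over the 10 libraries.

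Slc30a10 (chromosome 1, 185454848 to 185468762), known mainly as a manganese exporter, was at 34.9, 34.8, 35.5, 35.6 and 36.6 CPM untreated and at 34.7, 29.5, 30.3, 24.8 and 28.7 CPM treated, in the order of libraries 1 to 10. The groups did not overlap, but treated library 6 lay only just below the lowest untreated library. Slc30a10 fell from 35.5 ± 0.716 to 29.6 ± 3.54 CPM (SD, n = 5 each; log2 fold change -0.26, SE 0.07, adjusted p = 0.039, edgeR). Leaving out any 1 library other than treated library 6 ended this call, with adjusted p of 0.0574 to 0.0798 (edgeR).

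Slc30a3 (chromosome 5, 31086106 to 31108237), which loads zinc into synaptic vesicles of glutamatergic neurons, was at 65.4, 89.2, 58.5, 67.0 and 65.3 CPM untreated and at 62.4, 120.4, 97.3, 78.5 and 72.7 CPM treated. Treated library 7 was highest and treated library 6 among the lowest, and untreated library 2 lay above 3 treated libraries. The groups overlapped, and the log2 fold change of 0.32 (SE 0.16) missed the threshold (adjusted p = 0.211, edgeR). Markers of cortical and hippocampal excitatory neurons, the cells known for Slc30a3, summed to 1670 to 2118 CPM untreated and 1664 to 2226 CPM treated, with the lowest treated sum in library 6. Of these 8 markers 2 fell (Neurod6 and Bcl11b), none rose and none was at 0, where 4.65% of all genes tested fell.

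Slc39a12 (chromosome 2, 14388316 to 14494977), a zinc importer enriched in brain, was the transporter that rose. It was at 33.9, 37.1, 41.7, 43.7 and 44.3 CPM in untreated libraries 1 to 5 and at 54.8, 49.6, 55.3, 49.4 and 51.3 CPM in treated libraries 6 to 10. Every treated library lay above every untreated one. The group values were 40.1 ± 4.48 and 52.1 ± 2.82 CPM (SD, n = 5 each), a 1.30-fold rise (log2 fold change 0.38, SE 0.07, adjusted p = 0.00717, edgeR). No omission of a single library ended this call (adjusted p of 0.00426 to 0.0179, edgeR).

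Slc39a10 (chromosome 1, 46807544 to 46892852), a plasma membrane importer that MTF1 is known to repress, was at 138, 158, 142, 151 and 137 CPM untreated and at 118, 141, 144, 124 and 140.2 CPM treated. Treated libraries 6 and 9 lay below the untreated range and the other 3 inside it. Its log2 fold change of -0.12 (SE 0.06) missed the threshold (adjusted p = 0.236, edgeR). Slc39a14 (chromosome 14, 70303469 to 70351425), an importer of zinc, manganese and iron that inflammation induces in liver, was at 24.1, 26.8, 23.7, 19.1 and 20.8 CPM untreated and at 22.3, 23.1, 22.9, 26.1 and 25.7 CPM treated. All 5 treated values lay within the untreated range, with a log2 fold change of 0.07 (SE 0.09) and an adjusted p = 0.68 (edgeR).

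**Figure D4:**
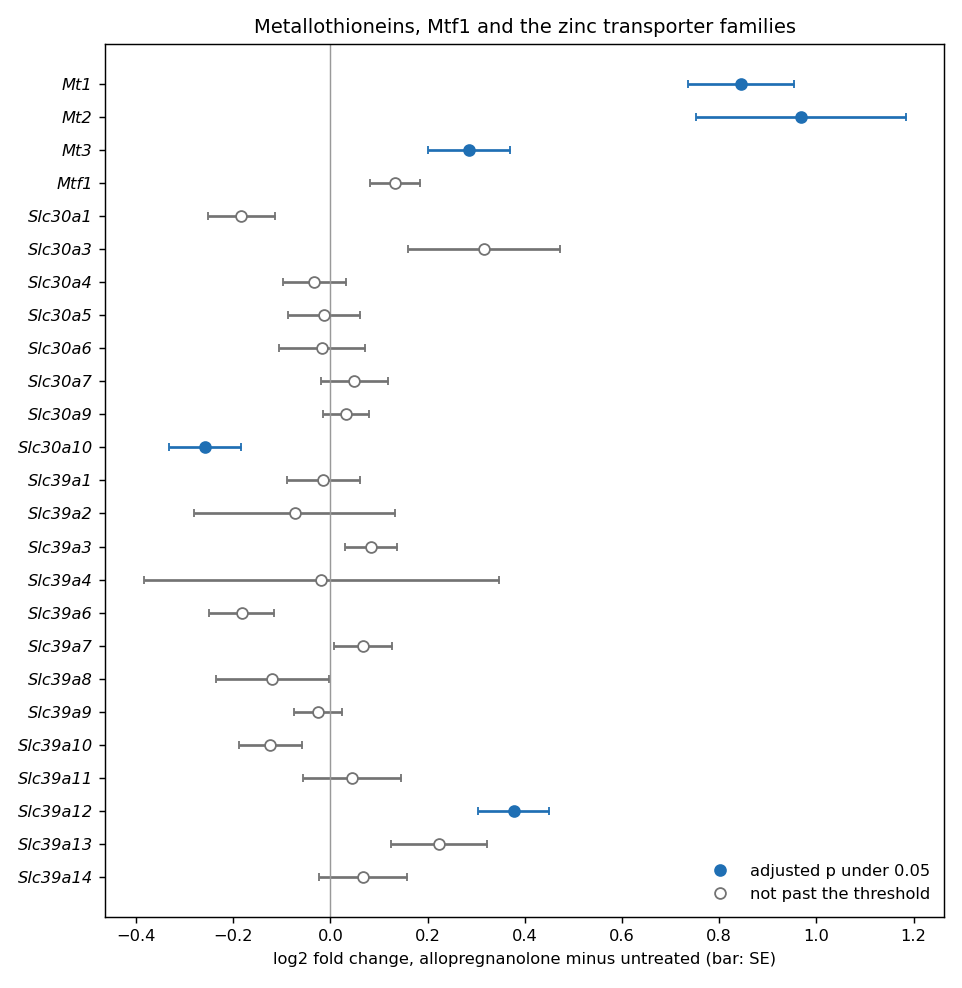
Log2 fold change (allopregnanolone minus untreated, x axis, bars are SE) of the metallothioneins, Mtf1 and every tested gene of the Slc30 and Slc39 families; filled points have an adjusted p under 0.05 (edgeR). Mt1 and Mt2 lie farthest from 0, at 0.84 and 0.97, and the family genes outside the set lie between -0.18 and 0.22.

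The other genes of the Slc30 and Slc39 families showed no call, where 11.3% of all genes tested were called. Of 7 further Slc30 exporters 5 were tested and none passed by edgeR, none also at an unadjusted p under 0.05, with log2 fold changes of -0.03 (Slc30a4) to 0.05 (Slc30a7). Slc30a2 and Slc30a8, the exporters of mammary gland and pancreatic islets, were below the count minimum. Of 11 further Slc39 importers 10 were tested and none passed, 2 being under an unadjusted p of 0.05, with log2 fold changes from -0.18 (Slc39a6, adjusted p = 0.0938, edgeR) to 0.22 (Slc39a13). Slc30a9, a mitochondrial transporter, had a log2 fold change of 0.03, which turned to -0.028 with library totals alone. Slc39a8, an importer of zinc and manganese, had -0.12. The summed level of all 10 Slc30 genes was 312 to 345 CPM untreated and 301 to 366 CPM treated.

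Levels can be compared between genes only per length. Per kilobase of annotated exon, the untreated level was highest for Mt3 (112 ± 12.6 CPM per kb), followed by Mt1 (64.2 ± 10.9) and Mt2 (62.5 ± 19.2; SD, n = 5 each), which overlapped in range. Slc30a3 (24.4 ± 4.14) and Slc39a10 (23.8 ± 1.45 CPM per kb) came next and did not differ beyond their spread, then Slc39a12 (13.4 ± 1.49). Slc30a10, Slc30a1, Mtf1 and Slc39a14 were lowest, at 6.08, 4.47, 3.36 and 2.17 CPM per kb. With treatment Mt3 (137 ± 14.0), Mt2 (123 ± 35.9) and Mt1 (115 ± 13.3 CPM per kb; SD, n = 5 each) overlapped on this length. The scale depends on the transcript assumed. On the length of the principal transcript, a choice made after the data were seen, untreated Mt1 was at 146 and Mt2 at 72.0 CPM per kb. Treated Mt2 (85.7 to 177 CPM per kb) then lay below Mt1 (218 to 291) and Mt3 (234 to 311) without overlap. The annotated exons of Mt1 form 1 block of 1246 bases, against 549 bases in its principal transcript.

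Of 6 other genes known as MTF1 targets 1 rose and 5 did not pass, with a median log2 fold change of 0.16. For this count and those that follow, 11.3% of all genes tested passed. The gene that rose was Csrp1, a LIM-domain protein of the cytoskeleton (1.71-fold, adjusted p = 0.00184, edgeR), whereas Slc40a1, the iron exporter ferroportin, had a log2 fold change of 0.04 (SE 0.10). The latter turned negative in 3 of 26 alternatives, among them library totals alone. None of 12 copper handling genes passed by edgeR (1 at an unadjusted p under 0.05, Sco1), with a median log2 fold change of 0.02. Of 11 iron handling genes tested 2 rose, Trf (2.13-fold), the transferrin gene that oligodendrocytes transcribe, and Fth1, the ferritin heavy chain (1.12-fold). Ftl1, Ireb2 and Aco1 were lower at an unadjusted p under 0.05 and did not pass (log2 fold changes -0.17, -0.20 and -0.11, edgeR). Of the 11 log2 fold changes 6 were above 0. The Fth1 call was lost in 12 of 26 alternatives.

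Genes that respond to glucocorticoids, known inducers of Mt1 and Mt2, rose in 9 of 16 cases and fell in none. Over all genes tested 6.61% rose and 4.65% fell. The median log2 fold change was 0.52 for these 16 genes against -0.0046 over all genes. Fkbp5, a chaperone of the glucocorticoid receptor, was at 22.7, 20.4, 20.5, 19.5 and 19.5 CPM in untreated libraries 1 to 5. In treated libraries 6 to 10 it was at 22.5, 29.2, 40.9, 46.2 and 48.6 CPM. The order of the treated libraries was that of Mt1, whereas the order of the untreated libraries was not. Treated library 6 lay just below untreated library 1 for Fkbp5, and the other treated libraries lay above the untreated range. Tsc22d3, the leucine zipper gene of this response, was at 24.3, 30.7, 28.4, 24.3 and 29.6 CPM in untreated libraries 1 to 5. In treated libraries 6 to 10 it was at 44.3, 54.4, 63.1, 70.1 and 69.1 CPM. Untreated libraries 1 and 4, the highest untreated ones for Mt1, were the lowest for Tsc22d3. The lowest treated value was in library 6 for 6 of the 9 genes that rose, as it was for Mt1 and Mt2. Library 6 was the lowest treated library for 24.5% of all genes tested and 18.9% of all genes called higher. Mertk, Hif3a, Sult1a1 and Plin4 also rose. The list was chosen with earlier results of these data known, and the part of glucocorticoids in the rise of Mt1 and Mt2 was not tested. Genes of the STAT3 and acute phase response, another known inducer, passed in 1 of 11 cases, near the 11.3% of all genes tested. None was called higher, and A2m was lower (1.88-fold, adjusted p = 0.0268, edgeR). The A2m call was lost in 7 of 26 alternatives, 4 of them omissions of 1 library (untreated 1 or 4, treated 7 or 10), with adjusted p of up to 0.0662 over the 10 omissions and 0.311 over all alternatives. Over the 11 genes tested the median log2 fold change was -0.10, with 3 values above 0. Socs3 (log2 fold change -0.64, adjusted p = 0.0502) and Serpina3n (0.61, adjusted p = 0.111, edgeR) missed the threshold. The summed level of the list was highest in untreated library 1, at 219.9 CPM against 114 to 194 CPM in the other 9 libraries. Of it, Serpina3n gave 81.1 CPM. Untreated library 1 was also the highest untreated one for Mt1 and Mt2, as it was for 18.3% of all genes tested. The part of this response in the levels of Mt1 and Mt2 was not tested.

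Marker levels of several cell types moved with the groups. Over all genes tested 6.61% rose and 4.65% fell. Of 13 astrocyte markers 7 rose, led by Gjb6 (2.34-fold), Fgfr3 and Aldoc, none fell and none was at 0, with summed levels of 3308 to 3988 CPM untreated and 4066 to 4496 CPM treated. All 10 oligodendrocyte markers rose (2025 to 3902 against 6000.1 to 8105 CPM), as did 6 of 7 precursor markers (571 to 845 against 885 to 1098 CPM) and 3 of 8 endothelial ones (213 to 231 against 269 to 294 CPM). Of 9 pericyte and meningeal markers none passed by edgeR, and their sum was 398 to 475 CPM untreated and 435 to 546 CPM in treated libraries 7 to 10 but 1031 CPM in library 6, the treated library with the least Mt1 and Mt2. Of 8 microglia markers 1 rose (Tmem119) and none fell, but only 2 of 8 log2 fold changes were above 0, with a median of -0.21. Microglia sums were 266 to 360 CPM untreated and 270 to 291 CPM treated. Of 8 neuron markers 2 rose (Eno2 and Camk2a) and 3 fell (Stmn2, Tubb3 and Map2), none was at 0, and the sums were 7814 to 8622 CPM untreated and 7821 to 8955 CPM treated. Of 6 red blood cell markers tested 1 rose (Slc4a1), with sums of 598 to 1467 CPM untreated and 975 to 1571 CPM treated. The part of these cell types in the changes of the metallothionein and zinc genes was not tested.

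Midbrain and dopamine neuron markers rose in 9 of 10 cases, against 6.61% of all genes tested. Their sums were 11.6 to 25.9 CPM untreated. In treated libraries 8 and 10 the sums were 19.2 and 20.8 CPM, and in treated libraries 6, 7 and 9 they were 67.9 to 124 CPM. With the mean of these markers as a covariate Mt1 had a log2 fold change of 1.05 (adjusted p = 0.0034) and Mt2 of 1.47 (adjusted p = 0.0141, edgeR), both above the values without it (0.84 and 0.97). Slc39a12 stood at 0.41 (adjusted p = 0.0912), Slc30a10 at -0.33 (adjusted p = 0.173) and Mt3 at 0.17 (adjusted p = 0.522, edgeR), all 3 past the threshold no longer. With a red blood cell covariate the same 2 genes, Mt1 and Mt2, passed. The log2 fold changes of the other 3 were then 0.29 for Mt3, -0.30 for Slc30a10 and 0.32 for Slc39a12, against 0.29, -0.26 and 0.38 without it. With a covariate of Y-linked genes Mt1, Mt2, Mt3 and Slc39a12 passed and Slc30a10 did not (adjusted p = 0.0511, edgeR). Y-linked and X inactivation genes summed to 418 CPM in untreated library 2 and 490 CPM in treated library 10. In the other libraries the sum was 80.2 to 105 CPM. Untreated libraries 1 to 3 carry another prefix in their library names than the other 7, so that only untreated libraries 4 and 5 share a prefix with the treated group. Within that prefix Mt1 passed with a log2 fold change of 0.81 (adjusted p = 0.0226) and the other 4 did not (adjusted p of 0.11 to 0.291, edgeR), in a comparison of 2 against 5 libraries.

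**Figure D5:**
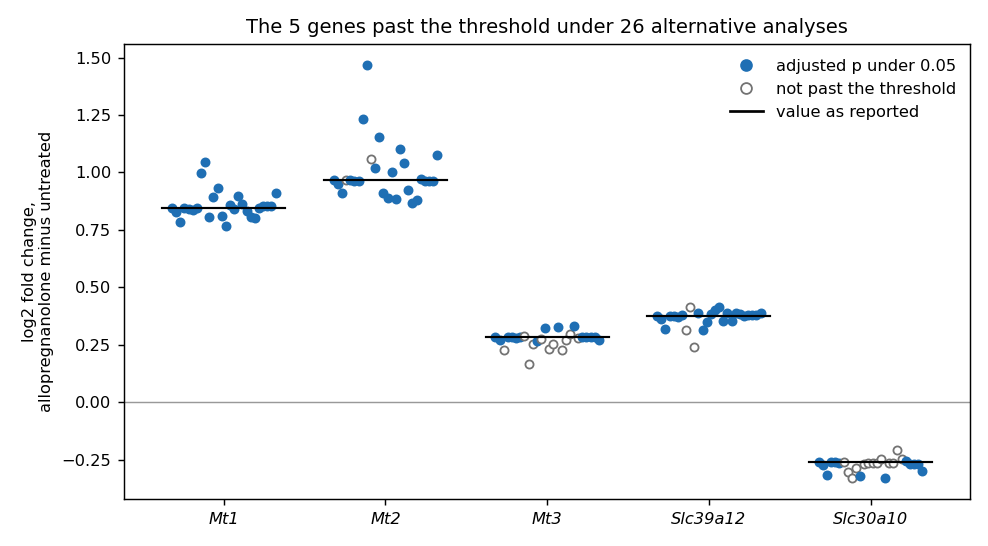
Log2 fold change of the 5 genes past the threshold in each of 26 alternative analyses (points; filled where the adjusted p is under 0.05) with the reported value as a line. Mt1 stays between 0.77 and 1.05 and passes throughout, and Mt3 and Slc30a10 lose the threshold in 11 and 13 alternatives.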

How the data were processed

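RNA of 10 whole brains was sequenced. Per the submitters' processing notes Partek and the mm10 genome were used, and the sources used here do not give the aligner, counter, annotation or strand setting. Per the labels' protocols the library kit was directional. The table deposited by the authors holds expected counts per gene. The file is named normalized, but in each library 86.8% to 87.6% of values over 0 were whole (within 1e-09), and library totals ran from 18656836 to 34270723. They were rounded and analysed as counts. Symbols and coordinates came from GENCODE M21 (GRCm38), which held 55144 of 55471 identifiers, and promoters from RefSeq (GRCm38.p6), which matched 9 of the 10 genes (not Slc39a14).

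Genes with at least 10 counts in 5 libraries were scaled by TMM (factors 0.953 to 1.04) and tested with edgeR 4.0.16 in R 4.3.3 (quasi-likelihood, two-sided, no covariate, Benjamini-Hochberg over 17101 genes). SE is the log2 fold change over the root of F. Tested on simulated data of this comparison with 17101 genes, it recovered 1.5-fold changes in 66% of cases and 2-fold changes in 83%. Of its calls there, 6.88% were genes simulated without a change. The simulated counts varied independently between genes, so these rates do not cover variation that genes share, as from tissue or batch. The pups were treated as separate animals, as numbered in the labels.

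The genes and lists were chosen with earlier results of these data known. The named genes are the 10 genes, up to 6 passing genes of each of 8 pathway lists, 4 fixed genes (Mt4, Slc30a9, Slc39a8 and Slc40a1), up to 3 passing genes of a marker list and the 3 genes most alike to each metallothionein, of which 1 is not reported here. Alternatives to the gene test numbered 26: 3 scalings, 2 count filters, robust empirical Bayes, DESeq2 1.42.0, limma 3.58.1 (3 prior counts, and voom with library weights), 3 covariates, 10 omissions of 1 library and 2 of several. Exact permutation tests and figures (matplotlib 3.10.9) were made in Python 3.11.15.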

Additional observations from a re-analysis of the deposited data

Results flagged for a closer look

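A library stood apart from the other 4 of its group in 6 of 98 groups of values examined, where chance flags about 1 in 20. Slc30a3 in untreated library 2 was at 89.2 CPM, against 58.5 to 67.0 CPM in the other untreated libraries. Stmn2, a growth cone gene, was likewise highest in untreated library 2, at 1077 against 976 to 1004 CPM. The single count of Mt4 (0.043 CPM) lay in untreated library 2. Among treated libraries, Fgfr3 was lowest in library 7 (94.6 against 103 to 107 CPM), Gpr17 highest in library 6 (374 against 297 to 318 CPM) and Neu4 highest in library 9 (24.6 against 18.5 to 19.4 CPM).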

How the results depend on the processing

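The reported fit called 1926 genes over the whole table (1131 higher and 795 lower). Separate fits called 839 genes with the red blood cell covariate, 183 with the midbrain covariate, 105 within the shared library name prefix and 1084 to 2343 with 1 library left out (1235, 1116 and 1084 without untreated library 1, 3 and 4). Library totals alone gave 783 higher and 1451 lower genes and a median shift of -0.06 on the log2 scale. The count of 5 called genes among the 10 became 2 with the red blood cell or midbrain covariate, 1 within the prefix, and 3 to 4 with 1 library left out. Among the metallothionein ratios, Mt1 over Mt3 ranged from 0.48 to 0.68 and Mt2 over Mt3 from 0.53 to 0.89 with 1 library left out, and without treated library 6 both passed. On principal transcript length the untreated levels per kb became 146 for Mt1, 223 for Mt3, 3.92 for Mtf1, 33.1 for Slc30a3, 26.4 for Slc39a10, 15.0 for Slc39a12 and 4.65 for Slc39a14, by construction of the shorter length. The 2 genes named next, which did not pass, changed sign: Slc30a9 to -0.028 with library totals alone, and Slc40a1 to -0.019 with library totals alone, -0.16 with the midbrain covariate and -0.048 to 0.10 with 1 library left out (the lowest without treated library 7). The cause of these changes was not tested. None of the 10 genes changed direction in any of the 26 alternatives. No paired analysis was possible because the pups are numbered 1 to 10 and no number is shared between the groups.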
